A study of Mus musculus with 14 samples.

Results

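The 28 genes described here encode proteins of the small (40S) subunit of the cytosolic ribosome in mouse small intestinal organoids (sIOs). They were chosen by name (Rpsa, Rps2, Rps3, Rps3a1, Rps4x, Rps6, Rps7, Rps9, Rps10, Rps12, Rps13, Rps14, Rps15, Rps15a, Rps16, Rps18, Rps19, Rps20, Rps21, Rps23, Rps24, Rps25, Rps26, Rps27, Rps27a, Rps28, Rps29 and Fau), without their processed pseudogenes, and are 28 of the 55401 genes of the count table. Earlier results of these data were known when this family and the related lists were chosen. RNA was labeled by APEX2, a peroxidase that attaches biotin-phenol to nearby RNA when H2O2 is added, then captured on streptavidin beads and sequenced (APEX-seq). The peroxidase was fused to DPP4, a protein of the apical membrane, or to ACTB or GFP, both used as cytoplasmic baits, with 4 libraries per bait. The paper reports weaker staining of the ACTB fusion and therefore took GFP as the cytoplasmic bait in its later analyses. A further pair of libraries, MITO-1 and MITO-1c, came from MITO-V5-APEX2, which is directed to mitochondria, and their labels do not say whether H2O2 was given. All constructs were delivered by lentivirus, and the study's mice were of the C57BL/6 J background. DPP4 was set against GFP and against ACTB to ask which transcripts lie near the apical membrane, and ACTB against GFP to compare the cytoplasmic baits. It is not stated whether the libraries of 1 bait stem from different cultures, and p-values below therefore measure only the spread between libraries, which may be technical. The study used ComBat-seq to correct for batches, since its samples had different preparation dates. The labels do not give these dates, so the correction was not repeated here. The part of the dates in the spread between libraries was not tested.

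The small subunit binds the mRNA, receives the initiator tRNA and holds the decoding site, and its proteins are needed in about equal numbers per ribosome. In vertebrates the mRNAs of these proteins usually begin with a C followed by a run of pyrimidines (a 5′ TOP tract), through which mTORC1 signaling and the protein LARP1 adjust their translation together. Many of these genes also have processed pseudogenes, which are spliced copies scattered over the genome and which matter here because reads were counted only where they fit 1 place and 1 gene.

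The start sites of members that carry the tract, and of a few that do not, are shown because the tract is a known feature of these mRNAs outside the protein. Of the 28 members, 24 had a RefSeq promoter (build GRCm38.p6), with 28 start sites in all. A C followed by at least 4 C or T, searched on the transcribed strand only, began at the start base in 7 members (25% of the 28 windows), against 2.51% of 32851 start sites of all genes and 17.9% of 39 start sites of large-subunit genes. Within 5 bases of the start it was found in 12 members (42.9% of windows), against 18.3% of all start sites and 46.2% of those of large-subunit genes. Each line gives 10 bases before the start and 15 from the start on, with the pyrimidine tract in capitals.
Rps6 (chr4:86857353-86857377, minus strand): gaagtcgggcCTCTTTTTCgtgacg
Rps15a (chr7:118116133-118116157, minus strand): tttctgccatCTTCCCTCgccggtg
Rps18 (chr17:33955651-33955675, minus strand): cacttccgctCTCTCTTCCacagga
Rps21 (chr2:180257369-180257393, plus strand): aggacccgccCTCCTgcccaatagt
Rps27 (chr3:90213634-90213658, minus strand): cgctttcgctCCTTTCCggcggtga
Fau (chr19:6057937-6057961, plus strand): gcccccacttCTTCCTCTTTCTTga
Rps9 (chr7:3704031-3704055, plus strand): cttgtctCTCTTTgtctcgggcctg
Rps3 (chr7:99483695-99483719, minus strand): aagggtcgccgcgctgcgcggcgtc
Rps4x (chrX:102189377-102189401, minus strand): gctgggcggagcaacccaggctcca
Rps10 is the seventh member with the tract at its start. A window with no tract says only that these letters are not at the RefSeq start.

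The 12 libraries of DPP4, ACTB and GFP held 9442594 to 36492010 counts, MITO-1 held 18268471 and MITO-1c 18716681. DPP4-4 and GFP-4 were the shallow ones, both under 50% of the median depth. Markers of the epithelium (Epcam, Cdh1, Vil1, keratins and others) summed to 3202 to 11903 CPM (a gene's counts divided by the library total and scaled to 1e+06) in these 12 libraries, and mesenchymal markers to at most 7.75 CPM. The libraries differed widely in cell type markers within each bait. The 15 enterocyte markers summed to 453 to 87036 CPM in DPP4 libraries, 203 to 55911 in ACTB and 482 to 48303 in GFP. The 10 crypt stem cell markers summed to 59.7 to 1104 CPM in DPP4 libraries, 430 to 2475 in ACTB and 191 to 1983 in GFP. DPP4-1 had the highest enterocyte and the lowest crypt stem cell sum, and ACTB-4 the reverse. In bulk RNA of this kind, fewer cells of a type and less RNA per cell cannot be told apart. The 4 loci Cmss1, Jarid2, Filip1l and Cdk8 alone held 4.91% or more of the counts of each of these libraries. Their share was highest in DPP4-4, at 26.97%, and next highest in DPP4-3, at 16.8%.

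The summed share of the 28 members in all counts differed widely within baits. In DPP4 libraries 1 to 4 they held 0.779%, 1.17%, 0.0857% and 0.476% of all counts, in ACTB libraries 0.644%, 0.879%, 2.01% and 0.582%, and in GFP libraries 0.603%, 1.13%, 0.718% and 0.733%. DPP4-3 lay far below and ACTB-3 above every other library of these baits. The highest share was 13.6 times the lowest in DPP4, 3.46 times in ACTB and 1.87 times in GFP. The shares in MITO-1 and MITO-1c were 1.26% and 1.46%. Without the 4 loci in the total, DPP4-3 still had 0.103% and ACTB-3 still had 2.28%.

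Levels of different members can be compared only per length. In TPM (counts divided by the length of the union of a gene's exons and scaled to the same total in each library), averaged over the 14 libraries, Rps4x was highest at 2564 ± 2078 (SD), followed by Rps18 at 834 ± 627 and Fau at 828 ± 483. Rps4x encodes the X-linked form of eS4, Rps18 a protein of the subunit's head near the tRNAs, and Fau a fusion of a ubiquitin-like protein with eS30. The lowest were Rps20 at 78.6 ± 82.9 TPM, Rps15a at 50.03 ± 37.8 TPM and Rps10 at 0.595 ± 0.660 TPM. The SD of Rps20 exceeded its mean. Rps10 lay below Rps15a by more than the SD of either. Rps18 lay below Rps4x by more than its own SD, though by less than that of Rps4x. Fau and Rps18 lay within each other's spread, as did Rps15a and Rps20. The SD is a spread over libraries in which all members were measured together, and it does not test their order. In normalized CPM, whose library totals were multiplied by TMM factors (the trimmed mean of M values), Rps15a had 113, 233, 10.1 and 66.7 in DPP4 libraries, 74.6, 156, 351 and 58.2 in ACTB libraries and 53.3, 97.9, 73.2 and 101 in GFP libraries, with the baits overlapping. By coding length in place of exon length, the highest were Rps4x, Rps18 and Rps14 and the lowest Rps12, Rps21 and Rps10. Rps15a and Rps20 then ranked 21 and 18 of 28. Their low place in TPM thus depended on their annotated exon lengths, 6270 and 4080 bases, beside coding lengths of 390 and 357 bases.

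Rps10, which encodes a protein of the head of the subunit, was almost uncounted. It had 4, 45, 0 and 8 counts in DPP4 libraries 1 to 4, 22, 0, 7 and 44 in ACTB libraries, 43, 1, 6 and 12 in GFP libraries, 2 in MITO-1 and 1 in MITO-1c. In the annotation, 92.1% of its coding bases also lie in exons of a readthrough gene, RPS10-NUDT3, and a read that fits 2 genes is not counted. That gene itself had 0 to 22 counts. Of the 75-base stretches of the Rps10 coding sequence, 90.7% also occur in transcripts of other genes, and pseudogenes that match it held 1052 counts over the 14 libraries, against 195 for Rps10. Their parts in its low count were not tested. The patterns below are therefore given for 27 members, and the fold changes of Rps10 rest on at most 45 counts per library.

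The other members have near-identical copies too. Of all 75-base stretches of coding sequence, 0% recurred in annotated transcripts of other genes for Rps3 alone, and more than 50% did so for 23 of the 28 members. The 397 annotated pseudogenes that match the coding sequence of a member (at least 85% identity over at least 50% of the member's length) held 1.25% to 3.96% of the counts of members and copies in a library, with the highest share in DPP4-3. Apart from Rps10, the share over all libraries was highest for Rps28 at 20.3% and Rps2 at 12.7% (up to 31.4% in a library), and Rps13 reached 31.7% in a library, so the values of Rps2 and Rps13 below are less certain. Levels of members with much shared sequence may be too low by an unknown amount.

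Over the 12 libraries of DPP4, ACTB and GFP the members varied together by library. DPP4-3 was the lowest of the 12 libraries for 26 of 27 members, against 22.2% of all 14445 genes whose mean reached 1 normalized CPM, and 41.4% of the 3024 protein-coding ones with up to 900 coding bases. ACTB-3 was the highest for 24 of 27, against 6.20% of the 14445 genes. The 42 large-subunit genes at that level did likewise, with DPP4-3 lowest for 36 and ACTB-3 highest for 34. On the log2 scale, the median over members of the level minus the gene's own mean was -3.66 in DPP4-3 and 1.69 in ACTB-3, and that over large-subunit genes -2.90 in DPP4-3 and 1.80 in ACTB-3.

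**Figure D1:**
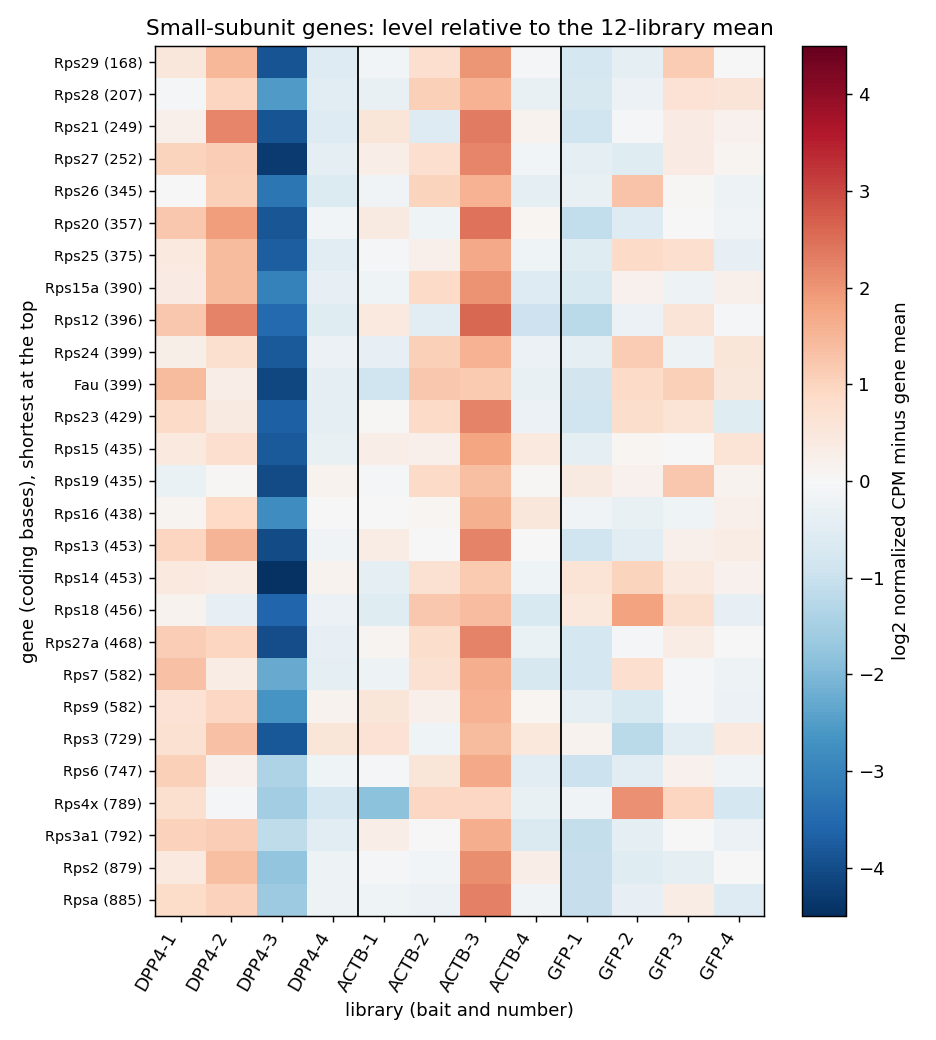
Level of 27 small-subunit genes (rows, shortest coding length at the top) in the 4 libraries each of DPP4, ACTB and GFP (columns), as log2 normalized CPM minus the mean of that gene over the 12 libraries; red is higher and blue lower. DPP4-3 is the lowest column for 26 of 27 genes and ACTB-3 the highest for 24.

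Rps27a, which encodes ubiquitin fused to eS31, followed the median pattern of the other members most closely (Pearson r = 0.99 over 12 libraries, a description, since the libraries share their depth and makeup with every gene). It had 399, 362, 11.2 and 143 normalized CPM in DPP4 libraries 1 to 4, 204, 323, 883 and 152 in ACTB libraries, and 109, 175, 233 and 186 in GFP libraries. ACTB-3 stood above all other libraries and DPP4-3 below all. DPP4-1, DPP4-2 and ACTB-2 also lay above every GFP library, and DPP4-4, ACTB-1 and ACTB-4 lay within the GFP range.

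Rps27 (r = 0.99), the gene of the zinc-finger protein eS27, had 173, 188, 3.90 and 63.6 normalized CPM in DPP4 libraries, 106, 147, 398 and 80.6 in ACTB libraries and 65.1, 59.4, 114 and 95.7 in GFP libraries. Rps29 (r = 0.98), the shortest member, had 69.0, 136, 2.77 and 32.3 normalized CPM in DPP4 libraries, 44.1, 82.7, 195 and 45.7 in ACTB libraries and 27.8, 35.8, 108 and 48.4 in GFP libraries. In both genes DPP4-3 was lowest and ACTB-3 highest.

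Rps4x, Rps3a1 and Rps18 were least like the median pattern, with r = 0.52, 0.77 and 0.78. Rps4x had 1875, 1075, 390 and 671 normalized CPM in DPP4 libraries, 317, 2200, 2207 and 909 in ACTB libraries, and 1029, 4748, 2221 and 656 in GFP libraries. Its highest level was in GFP-2 and its lowest in ACTB-1, and it was the only member of the 27 not lowest in DPP4-3. Rps3a1, whose protein lies near the mRNA exit, had 370, 391, 82.3 and 127 normalized CPM in DPP4 libraries, 220, 184, 560 and 115 in ACTB libraries and 85.3, 134, 179 and 151 in GFP libraries. It kept the order with DPP4-3 lowest and ACTB-3 highest, but over a narrower range.

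Rps18 had 557, 387, 42.3 and 423 normalized CPM in DPP4 libraries, 350, 1184, 1335 and 314 in ACTB libraries, and 705, 1781, 822 and 392 in GFP libraries. GFP-2 was its highest library and DPP4-3 its lowest, and the baits overlapped. Fau was highest in DPP4-1, with 575, 263, 11.8 and 157 normalized CPM in DPP4 libraries, 115, 497, 482 and 168 in ACTB libraries and 118, 382, 450 and 303 in GFP libraries. Beside these values, the enterocyte markers summed to 87036 CPM in DPP4-1, 55911 in ACTB-2, 22842 in GFP-2 and 48303 in GFP-3, and to 578 CPM in ACTB-3 and 2754 in ACTB-1. The part of cell makeup in these patterns was not tested.

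With DPP4-3 and ACTB-3 left out, a choice made after seeing the data, the members were less alike. The median of the 351 pairwise correlations between members was 0.85 over 12 libraries (0.14 to 0.99) and 0.53 over the remaining 10 (-0.86 to 0.97). In those 10 libraries, DPP4-2 was the highest for 15 members and GFP-1 the lowest for 17. GFP-2 was the highest for Rps4x, Rps14, Rps18, Rps24 and Rps26. The correlation with the median of the other members was then 0.01 for Rps18, 0.03 for Rps19 and 0.13 for Rps14, and 0.96 for Rps27a.

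Rps14 and Rps19 are known from human anemias that follow loss of a copy of either gene, and Rps26 encodes a protein at the mRNA exit. Rps19 had 250, 315, 18.6 and 342 normalized CPM in DPP4 libraries, 290, 556, 776 and 315 in ACTB libraries and 404, 346, 707 and 342 in GFP libraries. Its ACTB and GFP libraries overlapped, and DPP4-3 lay below all.

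In DPP4-3, genes with short coding sequences were low in general, and longer members lay higher than most short ones. The log2 level there minus the mean log2 level of the other 11 libraries had a median of -2.57 over the 156 protein-coding genes with coding sequences up to 300 bases, -1.65 for those over 300 and up to 600, -0.96 up to 900, -0.30 up to 1500, 0.35 up to 3000 and 0.82 beyond (genes whose mean reached 10 normalized CPM). In no other library did such a median pass -0.43 or 0.72. Members lay lower still. Those with coding sequences up to 700 bases, a limit set after seeing the values, lay between -4.85 (Rps14) and -2.46 (Rps7), with a median of -4.12 (21 members).

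Of the 6 longer members, 5 lay between -1.92 and -1.23: Rps2, Rpsa, Rps4x, Rps6 and Rps3a1. Against the arithmetic mean of the other 11 libraries, Rps3a1 was 2.78 times and Rps2 4.67 times lower in DPP4-3, Rps14 30.9 times and Rps27 34.7 times. Rps3, which encodes the protein at the mRNA entry that also acts in DNA repair, was the exception at -4.16 with a coding length of 729 bases. It had 672, 1049, 29.2 and 615 normalized CPM in DPP4 libraries, 651, 368, 1117 and 582 in ACTB libraries and 461, 182, 300 and 563 in GFP libraries. DPP4-3 lay below all other libraries. Over the 27 members, Spearman's rho of the DPP4-3 level with coding length was 0.49, and with the share of repeated sequence -0.06 (descriptions over genes of 1 library).

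**Figure D2:**
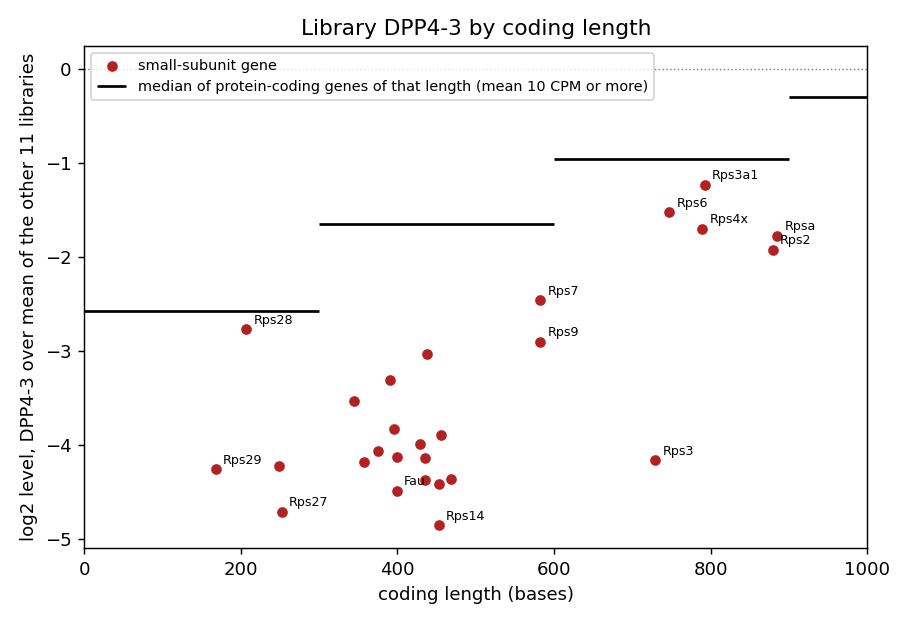
Log2 level of 27 small-subunit genes in DPP4-3 minus their mean log2 level in the other 11 libraries of the 3 baits (y axis) by coding length in bases (x axis). Red points are small-subunit genes, and black lines are medians of protein-coding genes in each length class whose mean reached 10 normalized CPM. Members up to 700 bases lie between -4.85 and -2.46 and 5 of the 6 longer ones between -1.92 and -1.23, with Rps3 at -4.16.

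In ACTB-3 the members covered a narrower range. Against the arithmetic mean of the other 11 libraries, they were 1.51 (Rps4x) to 4.97 times higher there (Rpsa, a protein also known as the laminin receptor), and Spearman's rho of the log2 level with coding length was -0.18. A list of 18 other genes known for a 5′ TOP tract, mostly translation factors such as Eef1a1, Eef2 and Pabpc1, also had their highest summed level in ACTB-3, at 15351 CPM. The 31 genes of 40S assembly and rRNA processing had theirs in ACTB-1, at 4445 CPM.

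The spread between libraries of a bait was wide for members in DPP4 and narrow in GFP. The median SD of log2 normalized CPM over the 4 libraries was 2.04 for members against 0.95 for all 14445 genes in DPP4, 1.00 against 0.82 in ACTB and 0.57 against 0.98 in GFP. Without DPP4-3 it was 0.79 for members against 0.66 for all genes in DPP4, and without ACTB-3 0.51 against 0.85 in ACTB, so the wide spread of members in these baits rested on 1 library each. Rps4x was the least spread member in DPP4 (0.97) and the most spread in GFP (1.26), and Rps16 the least spread in GFP (0.24).

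**Figure D3:**
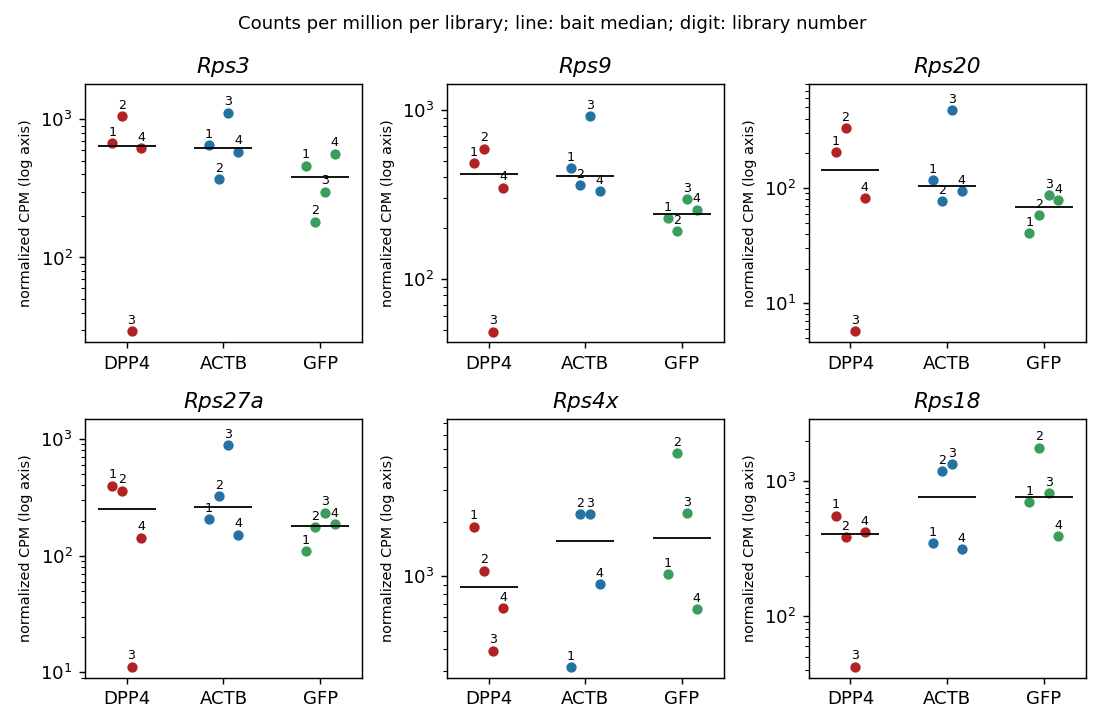
Normalized CPM (log axis) of Rps3, Rps9, Rps20, Rps27a, Rps4x and Rps18 in each library of DPP4, ACTB and GFP; each point is a library, its digit the library number, and the line the median of the bait. DPP4-3 is the lowest point of its bait in all 6 panels, and of the 6 genes only Rps9 has every ACTB library above every GFP library.

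Between the apical bait DPP4 and the cytoplasmic bait GFP, no member was called. A call needed an adjusted p under 0.05 in edgeR's quasi-likelihood test with a log2 fold change above 1 or below -1. This held for 0% of the 26136 genes tested (1534 had an unadjusted p under 0.05, and DESeq2 called 53 genes, none a member). Members at an unadjusted p under 0.05 numbered 0 in either direction, against 4.16% of all genes higher and 1.71% lower in DPP4. For 0 of 27 members did the baits not overlap, against 0.712% of 14322 genes higher and 1.82% lower. The fitted log2 fold change was above 0 for 16 members and below 0 for 12, with a median of 0.17 beside 0.09 for all genes. Of all genes tested, 53.6% were above 0.

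The members with the smallest p were Rps20 and Rps3a1 above 0, and Rps18 and Rps4x below 0. Rps20, a protein of the head, had 204, 330, 5.72 and 81.3 normalized CPM in DPP4 libraries and 40.9, 58.5, 86.9 and 78.5 in GFP libraries. Its DPP4 values lay on both sides of the GFP values, and the log2 fold change was 1.23 ± 0.79 (SE, edgeR adjusted p = 1.00, unadjusted p = 0.138). Rps3a1 had a log2 fold change of 0.82 ± 0.59 (unadjusted p = 0.175). The log2 fold change of Rps18 was -1.39 ± 0.70 (adjusted p = 0.836, unadjusted p = 0.0588) and that of Rps4x -1.11 ± 0.71 (unadjusted p = 0.130). None of these differences passed the threshold.

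Leaving out single DPP4 libraries moved this comparison. Without DPP4-3, 22 of 28 members were above 0 with a median of 0.54, and 7 (Rps2, Rps3, Rps3a1, Rps9, Rps12, Rps13 and Rps20) had an unadjusted p under 0.05, all higher in DPP4, with an edgeR adjusted p of 0.987. In the same fit 3.59% of the 25906 genes tested were higher at that level. The median of all genes was 0.09, and 53.5% of them were above 0. Without DPP4-2 the median was -0.37, and without DPP4-1 it was 0.01.

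Between ACTB and GFP, members were mostly above 0. No member was called, as were 0% of the 26470 genes tested (1486 had an unadjusted p under 0.05, and DESeq2 called 73 genes, none a member). The fitted log2 fold change was above 0 for 23 members and below 0 for 5, with a median of 0.83 beside 0.11 for all genes. Of all genes tested, 54.8% were above 0. Of the members, 5 had an unadjusted p under 0.05 and were higher in ACTB, against 3.22% of all genes, and 0 were lower, against 2.4% of all genes. Their adjusted p was 0.814 in each case. These members vary together by library and are not independent observations.

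Rps9, a protein at the mRNA entry, was the only member whose baits did not overlap, against 1.6% of 14468 genes higher and 0.899% lower. It had 451, 360, 916 and 330 normalized CPM in ACTB libraries and 230, 192, 298 and 257 in GFP libraries, a log2 fold change of 1.07 ± 0.41 (SE, edgeR adjusted p = 0.814, unadjusted p = 0.0193). The nearest libraries were ACTB-4 and GFP-3. Without ACTB-3, the log2 fold change of Rps9 was 0.62 ± 0.39 with an unadjusted p of 0.130.

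Rps2, whose protein lines the mRNA entry channel, had 234, 230, 1077 and 307 normalized CPM in ACTB libraries and 121, 171, 190 and 245 in GFP libraries. ACTB-3 stood apart, ACTB-4 also lay above every GFP library, and ACTB-1 and ACTB-2 lay within the GFP range. The log2 fold change was 1.34 ± 0.51 (edgeR unadjusted p = 0.0204). Rps20 had 116, 77.6, 478 and 93.5 normalized CPM in ACTB libraries against the GFP values above, a log2 fold change of 1.52 ± 0.56 (unadjusted p = 0.0166). The other members at this level were Rps27 (1.12 ± 0.50, unadjusted p = 0.0406) and Rps27a (1.14 ± 0.52, unadjusted p = 0.0446). At the other end, Rps4x had a log2 fold change of -0.62 ± 0.68 (unadjusted p = 0.375).

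Without ACTB-3, the median of the members was 0.10, 17 were above 0 and 11 below, and 0 had an unadjusted p under 0.05. Among all genes of that fit, 53.0% were above 0. In each of the other fits that left out a library, the median was between 0.71 and 0.96.

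Between DPP4 and ACTB, 27 of 28 members were below 0 and only Rps10 was above, with a median of -0.47 beside 0.05 for all genes. Of all genes tested, 52.1% were above 0. No member was called, as were 0% of the 27451 genes tested (1693 had an unadjusted p under 0.05, and DESeq2 called 141 genes, none a member). No member had an unadjusted p under 0.05, against 3.95% of all genes higher and 2.22% lower in DPP4, and for 0 of 27 did the baits not overlap, against 0.89% of 14386 genes higher and 2.14% lower. The smallest p belonged to Rps18, at -1.10 ± 0.73 (SE, edgeR adjusted p = 0.948, unadjusted p = 0.147), and Rps19, at -0.99 ± 0.71 (unadjusted p = 0.175). Rps10 had a log2 fold change of 0.27 ± 1.70.

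This direction turned with the libraries that stand apart. Without ACTB-3, 18 members were above 0, beside 52.9% of all genes, and the median of the members was 0.05. Without DPP4-3 and ACTB-3 together, a fit added after seeing the data, 26 of 28 members were above 0 with a median of 0.44 beside 0.10 for all genes. Among all genes of this fit, 53.7% were above 0. In that fit 0 members were called, and 1 member, Rps12, had an unadjusted p under 0.05 (log2 fold change 1.65 ± 0.67, unadjusted p = 0.0304, edgeR adjusted p = 0.926), against 5.10% of the 26569 genes tested. The 3 comparisons share their libraries, so they are not independent of each other.

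**Figure D4:**
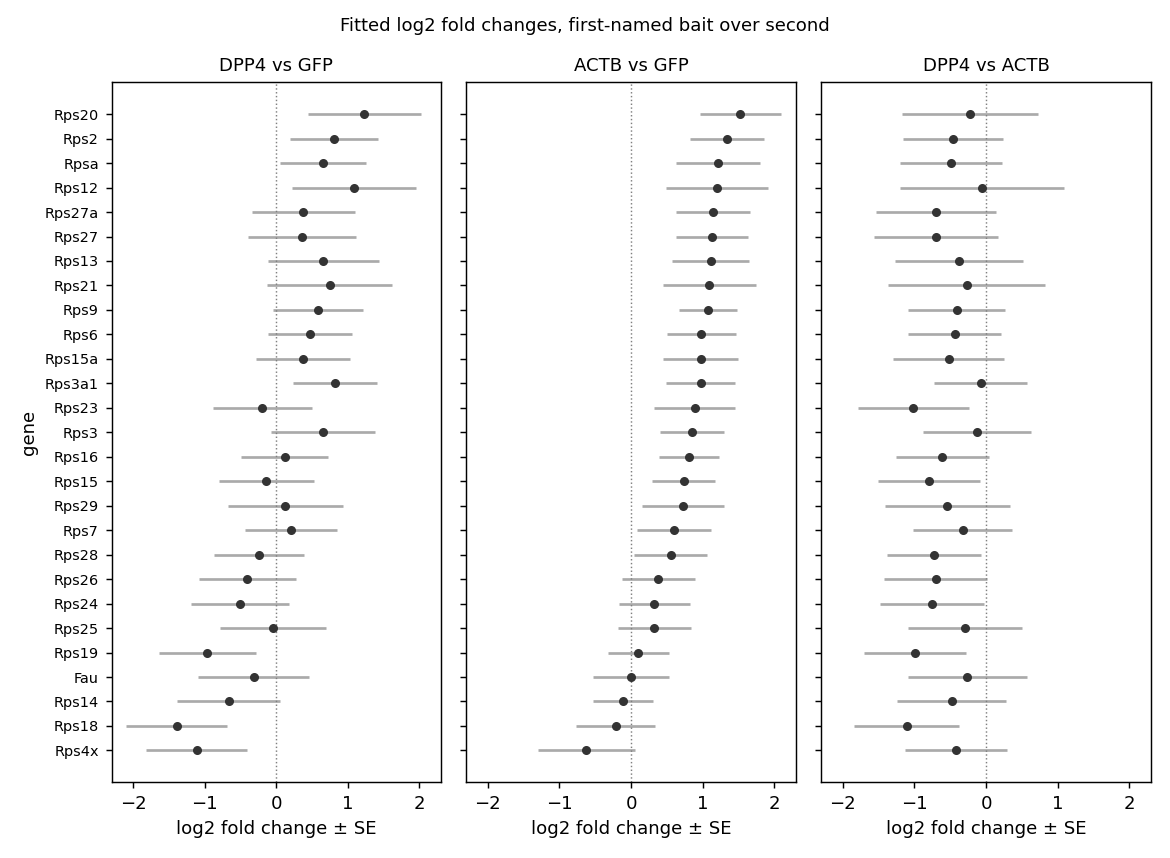
Fitted log2 fold change with its SE (x axis) of 27 small-subunit genes (rows, ordered by ACTB against GFP) in DPP4 against GFP, ACTB against GFP and DPP4 against ACTB; values right of 0 are higher in the bait named first. Medians over the 28 genes are 0.17, 0.83 and -0.47, and 0 genes were called in any panel.

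Each member was also set against the sum of all 28, by using that sum as the library size. No member was called in any of the 3 comparisons on this scale (edgeR's quasi-likelihood test and DESeq2), and with all libraries of a comparison 0 had an unadjusted p under 0.05 in edgeR. Rps20 had a log2 fold change of 1.05 ± 0.92 in DPP4 against GFP and of 1.01 ± 0.61 in ACTB against GFP, and Rps18 one of -1.04 ± 1.00 in DPP4 against GFP. This fit scaled every gene by the same sum. In DPP4 against GFP the median over all genes was then 0.90, with 74.6% of genes above 0. The spread of these genes enters the SE of each member, and the sum holds the tested member itself. Whether the ratio of members to each other changed between baits therefore cannot be judged from this fit.

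The related lists are given as counts and medians of fitted log2 fold changes, with 0 genes called in each. Large-subunit ribosomal protein genes had a median of 0.43 in DPP4 against GFP (31 above 0, 12 below), 0.85 in ACTB against GFP (41 above, 3 below, 10 at an unadjusted p under 0.05, all higher) and -0.47 in DPP4 against ACTB (4 above, 40 below). The small-subunit medians were 0.17, 0.83 and -0.47. Rpl7, a large-subunit gene, had the smallest p in ACTB against GFP (1.74 ± 0.54, edgeR adjusted p = 0.814). The list of other 5′ TOP genes had medians of 0.38, 0.70 and -0.32 in the same order of comparisons. The 40S assembly and processing genes, which act in the nucleolus and on pre-40S particles, stayed nearer 0 at -0.02, 0.24 and -0.17. The 19 initiation factors that bind the 40S subunit had medians of -0.24, 0.25 and -0.45.

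Rps27l, a paralog of Rps27 known as a p53 target, is not counted among the 28. It had 83.2, 112, 1.45 and 83.5 normalized CPM in DPP4 libraries, 86.8, 105, 157 and 63.2 in ACTB libraries and 84.2, 141, 110.5 and 65.9 in GFP libraries. DPP4-3 was the lowest and ACTB-3 the highest here as well. Its log2 fold change was -0.52 ± 0.80 in DPP4 against GFP, 0.03 ± 0.41 in ACTB against GFP and -0.48 ± 0.82 in DPP4 against ACTB, and none was called.

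MITO-1 and MITO-1c are single libraries, so their difference has no replicate check and the 95% intervals cover counting error only. The pair also differed in cell type markers. Those of the epithelium summed to 17378 CPM in MITO-1 and 6479 CPM in MITO-1c, and those of crypt stem cells to 315 and 940 CPM. Enterocyte markers were closer, at 14100 and 15742 CPM. The part of cell makeup in the ratios below was not tested. Of 27 members, 19 were higher in MITO-1 with an interval above 0, 7 were lower with an interval below 0, and Rps2 had an interval that held 0. The median log2 ratio of MITO-1 over MITO-1c was 0.45, against -0.19 over the 11797 genes with at least 10 counts in both. Of those genes, 42.4% had a ratio above 0, against 70.4% of the members. For 42 large-subunit genes it was 0.34.

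The members of this pair of libraries did not differ by a common factor. Rps26 had 946 CPM in MITO-1 and 336 CPM in MITO-1c (log2 ratio 1.49, interval 1.45 to 1.54), and Rps27a 511 and 223 CPM (1.20, interval 1.15 to 1.25). In the other direction, Rps4x had 1931 CPM in MITO-1 and 5232 CPM in MITO-1c (-1.44, interval -1.46 to -1.42) and Rps18 1447 and 2393 CPM (-0.73, interval -0.75 to -0.70). The range over members, -1.44 to 1.49, was wider than any counting interval of the 27. Of the 3 members least like the others over the 12 libraries, Rps4x and Rps18 were at this end of the pair, and Rps3a1 was not (0.28, interval 0.21 to 0.35). With TMM scaling of this pair, all ratios moved up by 0.22 and 23 of 27 were above 0. The median of all genes was then 0.04, and their share above 0 was not counted on that scale.

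**Figure D5:**
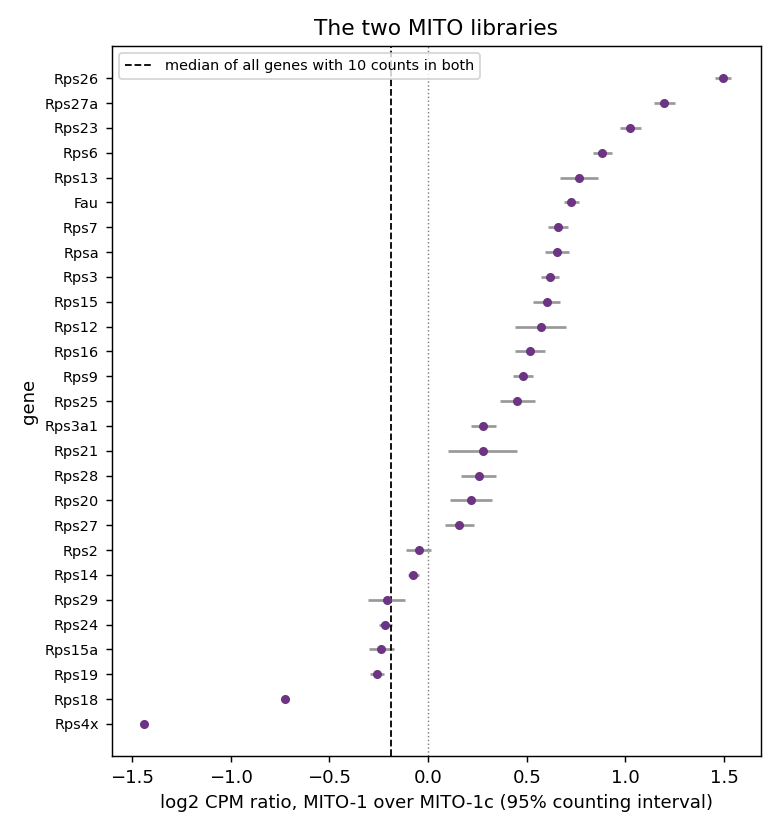
Log2 ratio of CPM, MITO-1 over MITO-1c (x axis), for 27 small-subunit genes (rows), with bars for the 95% counting interval; the dashed line is the median of genes with at least 10 counts in both libraries. Ratios run between -1.44 for Rps4x and 1.49 for Rps26, with 19 of 27 above 0, against 42.4% of those genes.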

How the data were processed

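The deposited file is a gene-by-library matrix of raw counts made by the authors (14 libraries). The study's methods and the submitters' notes name cutadapt 4.0 for trimming, STAR 2.7.9a with GRCm38 for alignment and HTSeq 1.99.2 with default settings for counting, which drops reads that fit several places or genes. HTSeq counts by strand unless told otherwise and the library kit does not mark strand, so the counts may hold only the reads of 1 orientation; the setting is not given further in the sources used here. The matrix precedes the study's removal of libraries, ComBat-seq and filters. Gene names came from a GENCODE annotation of GRCm38 (54349 of 55401 IDs matched with version and 792 without) and start sites from RefSeq. Baits and numbers were taken from the labels. Each comparison used 8 libraries, genes with at least 5 counts, TMM and edgeR 4.0.16 quasi-likelihood tests in R 4.3.3, adjusted over all genes by Benjamini-Hochberg; the code was tested on simulated data. SE are the log2 fold change over the root of its F statistic. DESeq2 1.42.0, other scalings and filters, a replicate block and leaving out libraries were alternatives. Members and lists were chosen with earlier results of these data known. Values per library are given for members at both ends of level per length, with the smallest p or no overlap in a comparison, or most and least like the median pattern, and for Rps27l; Rps2, Rps3, Rps12, Rps19, Rps26, Rps27 and Rps27a are also named for a count or after their values were seen. For MITO ratios 0.5 counts were added.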

Additional observations from a re-analysis of the deposited data

Results flagged for a closer look

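In 84 groups of 4 libraries (28 members in 3 baits) and 3 groups of summed shares, 1 library stood far from the nearest of the others in 9 groups. Chance does this in about 1 group in 20 where groups are independent and values normally spread. Members vary together over the same libraries, so the 9 groups are not independent and cannot be set against that rate. ACTB-3 was the library in 7 of them, at normalized CPM of 1058 for Rpsa (next highest 192), 1077 for Rps2 (307), 352 for Rps12 (79.5), 381 for Rps13 (103), 486 for Rps15 (192), 478 for Rps20 (116) and 241 for Rps25 (86.8). In GFP libraries, Rps19 stood out in GFP-3 at 707 (next highest 404) and Rps26 in GFP-2 at 438 (184). In ACTB-3 the 4 loci Cmss1, Jarid2, Filip1l and Cdk8 held 11.5% of the counts and the enterocyte markers summed to 578 CPM, and their part in these values was not tested. DPP4-3 does not appear here because the gap to the next lowest DPP4 library, taken on the linear scale, is small beside the range of the bait.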

How the results depend on the processing

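No member was called in any of the 3 comparisons under any alternative run, with or without the summed members as library size, and the smallest adjusted p of a member, on TMM or another overall scaling, was 0.626 in DPP4 against GFP, 0.494 in ACTB against GFP and 0.624 in DPP4 against ACTB. The number of genes called, 0 in each, was 6 in DPP4 against GFP and 60 in DPP4 against ACTB with no filter, and 53, 73 and 141 with DESeq2 (DPP4 against GFP, ACTB against GFP, DPP4 against ACTB); leaving out 1 library gave 0 to 10 in ACTB against GFP (10 without ACTB-2) and 0 to 56 in DPP4 against ACTB (56 without ACTB-2). The median of the members ran between -0.37 and 0.54 in DPP4 against GFP, 0.10 and 0.96 in ACTB against GFP and -1.04 and 0.05 in DPP4 against ACTB when 1 library was left out, and between -0.20 and 0.28, 0.66 and 0.95, and -0.66 and -0.35 under the other settings. Library totals without TMM moved the median of all genes to -0.21 in DPP4 against ACTB (42.4% of genes above 0), with 27 members still below 0. The median MITO ratio was 0.68 with TMM. The cause of these shifts was not tested. The replicate numbers did not pair the libraries: deviations of same-numbered libraries correlated at -0.63 to 0.50, and 0 of 12 libraries lay closest to one of their own number. With the number as a replicate block, the median of the members was -0.20, 0.66 and -0.52, and 0, 0 and 166 genes were called in DPP4 against GFP, ACTB against GFP and DPP4 against ACTB, none a member. With the summed members as library size, 1 member had an unadjusted p under 0.05 in DPP4 against GFP without DPP4-3, against 3.41% of all genes in that fit, and the smallest adjusted p was 0.571 in DPP4 against GFP, 0.773 in ACTB against GFP and 0.720 in DPP4 against ACTB over all settings.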
